A study of Rattus norvegicus with 6 samples.

Results

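The genes described here are Atp1b1, Atp1b2 and Atp1b3, which encode the beta subunits of the sodium pump, and Slc12a2, which encodes the sodium-potassium-chloride cotransporter NKCC1. They were read by all probe sets that the platform annotation assigns to 1 of these 4 symbols and to no other, 11 of the 8799 probe sets on the array. Atp1b1 and Atp1b2 had 3 probe sets each, Atp1b3 had 1 and Slc12a2 had 4. The arrays measured RNA from the aorta of spontaneously hypertensive rats (SHR), an inbred strain with high blood pressure that was the only strain in the study. Runners had a wheel in the cage and ran voluntarily for 5 weeks, and non-runners did not run. Each group had 3 Affymetrix arrays, called A, B and C after the chip letters in the labels, and each array carried RNA pooled from 3 aortae. The labels do not give age or sex, nor how rats were divided among pools, so p-values measure only the spread between pools, part of which may be technical. Whole aorta is a mixture of cells, and in such a mixture fewer cells of a type and less RNA per cell cannot be told apart.

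The sodium pump, or Na,K-ATPase, moves sodium out of the cell and potassium in at the cost of ATP. Its alpha subunit carries out transport, while the glycosylated beta subunit is needed for folding and delivery of the pump to the membrane, and small FXYD proteins tune its activity. The sodium gradient that the pump maintains drives other carriers, among them NKCC1, which brings sodium, potassium and chloride into the cell. In arterial smooth muscle the pump contributes to membrane potential and, through sodium-calcium exchange, to calcium load, and NKCC1 raises intracellular chloride, which favours depolarisation and contraction.

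Of the 11 probe sets, 8 were bright enough to be tested, and 0 of these passed a test over the whole array at an adjusted p under 0.05 by limma, where 0% of all 5244 tested probe sets passed. The smallest p belonged to 1 probe set of Slc12a2, whose runner values all lay below its non-runner values, close to the signal of control probe sets. Atp1b3 had a lower mean in runners with overlapping groups, and the probe sets of Atp1b1 pointed in opposite directions. The brightest probe set of Atp1b2 had overlapping groups with nearly equal means.

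Values are the deposited intensities, linear and in arbitrary units, and a level is compared only within a probe set because probes differ in brightness. As no background was given, a control level of 40.8 was set from 19 control probe sets (yeast genes, or the sense strand of control genes), below which 95% of their values lie. Signal under it is not established. Of the 11 probe sets, 4 lay above this level on all 6 arrays, 1 on some arrays and 6 on none. Of all probe sets other than controls, 55.4% to 57.5% lay at or below it on a given array, a share per array rather than over all 6. The test, limma on quantile-normalized log2(intensity + 2.4), left out the dimmest 40% of probe sets, which removed 3 of the 11. Differences are runner minus non-runner on that log2 scale, which understates changes of dim probe sets.

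The array of non-runner B stood apart, with an SD of log2 differences over probe sets of 0.56 to 0.61 in pairs that include it and 0.36 to 0.41 in the other pairs. For the beta-actin control, the intensity at the 3' end over that at the 5' end, a ratio that increases as the 5' end is lost, was 1.30, 1.43 and 1.22 on runner A, B and C, against 1.28, 2.14 and 1.67 on non-runner A, B and C. Non-runner B had the highest ratio of the 6 arrays, and values without it are given beside some of the results it moves.

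**Figure D1:**
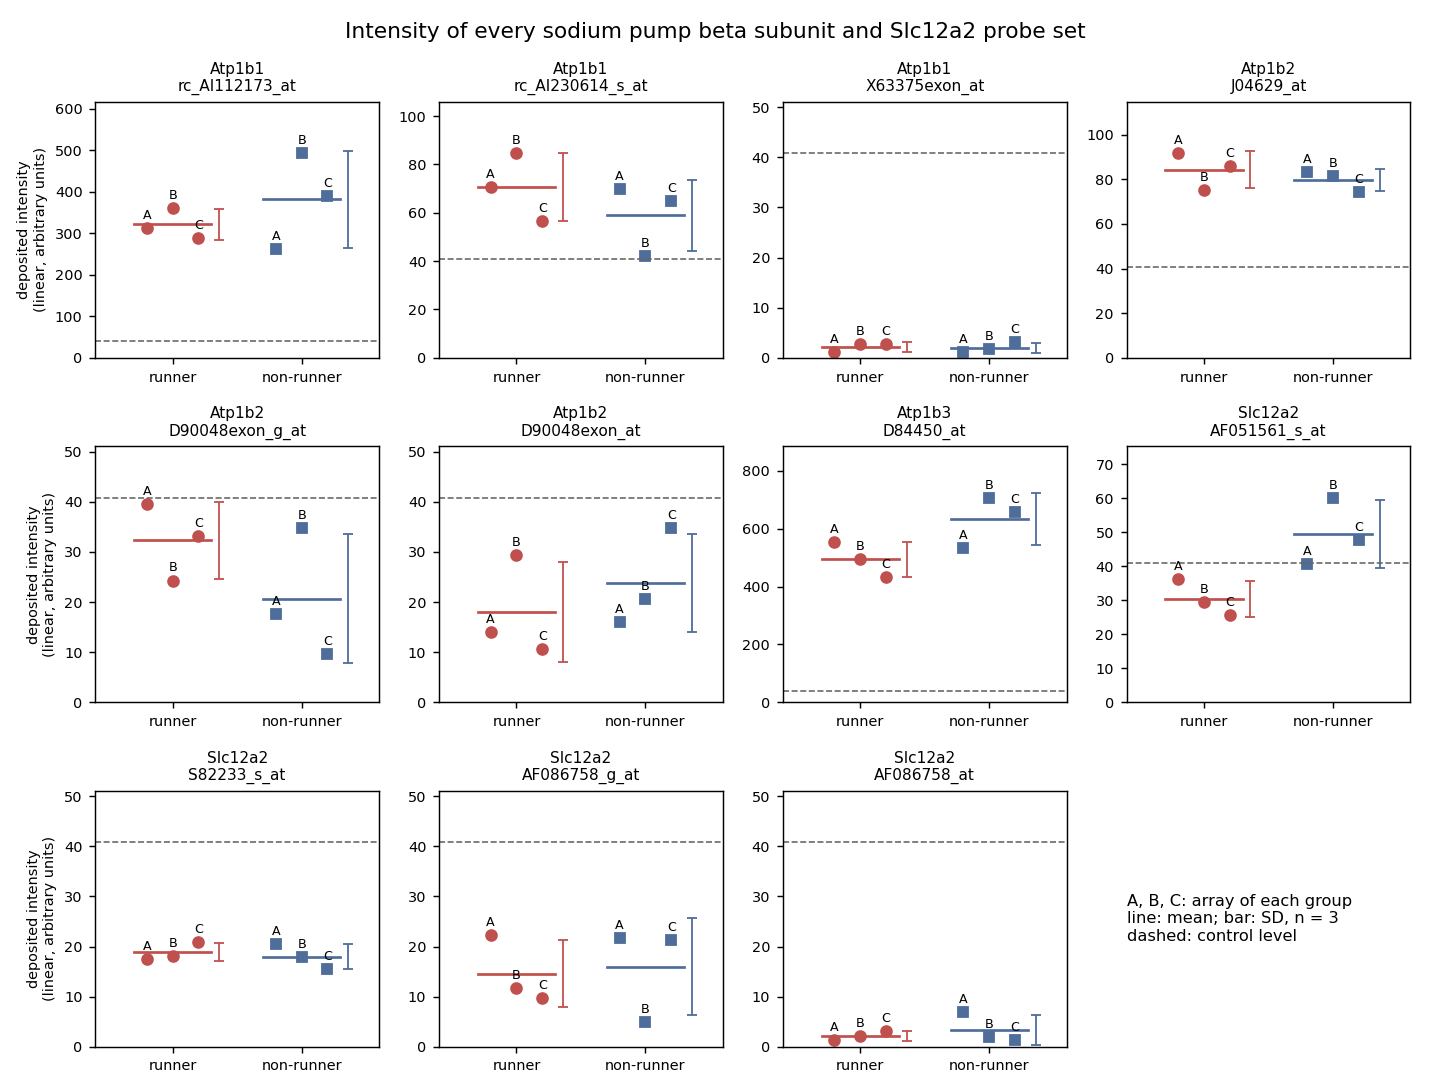
Deposited intensity (vertical axis, linear, arbitrary units, from 0) of each of the 11 probe sets on the 3 runner and 3 non-runner arrays, with letters for the arrays, a line for the mean, a bar for the SD (n = 3) and a dashed line at the control level of 40.8. The groups are fully separated only in AF051561_s_at of Slc12a2, which lies close to the dashed line, and 6 of the 11 panels have every point below it.

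Atp1b1 encodes the beta subunit found most widely across tissues. Its probe set rc_AI112173_at measured 313.9, 361.9 and 288.6 on runner A, B and C, against 262, 493.6 and 390.1 on non-runner A, B and C. The non-runner values enclosed all the runner values, non-runner A being the lowest of the 6 arrays and non-runner B the highest. The runner mean was 321 ± 37.2 and the non-runner mean 382 ± 116 (SD, n = 3 each), a log2 difference of -0.22 ± 0.24 (SE, 95% interval -0.78 to 0.34, limma adjusted p = 0.826). The difference was -0.0033 ± 0.21 without non-runner B and -0.46 ± 0.20 without non-runner A (limma adjusted p = 0.997 and 0.476), so its size rested on which non-runner arrays were kept.

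A second Atp1b1 probe set, rc_AI230614_s_at, measured 70.5, 84.7 and 56.5 on runner A, B and C, against 69.7, 42.1 and 65 on non-runner A, B and C. Here non-runner B was the lowest of the 6 arrays, where it had been the highest in rc_AI112173_at. The suffix _s_at marks probes that can match more than 1 related transcript, so its value, like those of the _s_at probe sets of Slc12a2 below, may include other transcripts. The runner mean was 70.6 ± 14.1 and the non-runner mean 58.9 ± 14.8 (SD, n = 3 each), a log2 difference of 0.23 ± 0.24 (SE, 95% interval -0.32 to 0.78, limma adjusted p = 0.804), which was 0.026 without non-runner B. The probe sets therefore gave opposite signs for the same gene, neither passed, and whether they differ from each other was not tested. The remaining Atp1b1 probe set, X63375exon_at, lay between 1.1 and 2.7 in runners and between 1.2 and 3.1 in non-runners, far below the control level, and was left out of the test.

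Atp1b2 encodes a beta subunit best known from rodent brain, where it is also called the adhesion molecule on glia. Its probe set J04629_at measured 91.8, 75.3 and 85.8 on runner A, B and C, against 83.4, 81.4 and 74.3 on non-runner A, B and C. All 6 arrays lay above the control level, and the groups overlapped over most of their range. The runner mean was 84.3 ± 8.35 and the non-runner mean 79.7 ± 4.78 (SD, n = 3 each). The log2 difference of 0.074 ± 0.15 (SE, limma adjusted p = 0.91) had a 95% interval of -0.27 to 0.42, the second narrowest of the tested probe sets. That interval still holds differences of these sizes in either direction.

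The other Atp1b2 probe sets, D90048exon_g_at and D90048exon_at, stayed below the control level on all 6 arrays. D90048exon_g_at measured 39.5, 24.3 and 33.2 on runner A, B and C, against 17.7, 34.8 and 9.6 on non-runner A, B and C. D90048exon_at measured 14, 29.3 and 10.7 on runner A, B and C, against 16.1, 20.6 and 34.7 on non-runner A, B and C. Non-runner C was the lowest array in D90048exon_g_at and the highest in D90048exon_at, and runner A the highest in the first and among the lowest in the second. No fold is given for either (limma adjusted p = 0.694 and 0.781).

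Atp1b3 encodes the third of the pump's beta subunits in mammals and was read by 1 probe set, D84450_at. It measured 554.3, 496.1 and 434.4 on runner A, B and C, against 532.7, 707.9 and 657.6 on non-runner A, B and C. Non-runner A lay within the runner range, and the other non-runner arrays lay above every runner array. The runner mean was 495 ± 59.96 and the non-runner mean 633 ± 90.2 (SD, n = 3 each). The log2 difference was -0.34 ± 0.17 (SE, 95% interval -0.74 to 0.056, limma unadjusted p = 0.0831, adjusted p = 0.65). Its sign was negative in all 11 alternatives that kept 6 arrays and in all 6 that left out an array. Of the 11, those that changed only the filter or the variance model, or added the chip letter as a block, leave a difference unchanged by construction. It was -0.25 without non-runner B, -0.46 without non-runner A, and -0.15 ± 0.17 with the beta-actin ratio as a covariate.

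Slc12a2 encodes NKCC1, the target of the loop diuretic bumetanide. Its probe set AF051561_s_at measured 36.2, 29.6 and 25.7 on runner A, B and C, against 40.6, 60.2 and 47.8 on non-runner A, B and C. Every runner array lay below every non-runner array, and every runner array lay below the control level, as did non-runner A by a small margin. The runner mean was 30.5 ± 5.31 and the non-runner mean 49.5 ± 9.91 (SD, n = 3 each). With the control level put in for each runner array, the runner level came out 1.19-fold lower. Non-runner A kept its own value there, which also lay under the control level, so 1.19 is not a lower limit. The fit gave a log2 difference of -0.68 ± 0.22 (SE, 95% interval -1.18 to -0.17), with an unadjusted p = 0.0146 and an adjusted p = 0.547 by limma, so it did not pass. Without non-runner B the difference was -0.53 ± 0.21 (limma adjusted p = 0.593), and it stayed negative in each of the 6 fits that left out an array. With the dimmest 60% of probe sets left out this probe set was no longer tested.

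The other Slc12a2 probe sets had overlapping groups, and none lay above the control level on any array. S82233_s_at measured 17.6, 18.2 and 21 on runner A, B and C, against 20.5, 18 and 15.5 on non-runner A, B and C (limma adjusted p = 0.96). AF086758_g_at measured 22.3, 11.8 and 9.7 on runner A, B and C, against 21.8, 4.9 and 21.3 on non-runner A, B and C. AF086758_at lay between 1.3 and 3.2 in runners and between 1.4 and 6.9 in non-runners. The last pair were left out of the test by the filter. The cotransporter was thus above the control level in only 1 of its 4 probe sets, and there only on non-runner B and C.

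**Figure D2:**
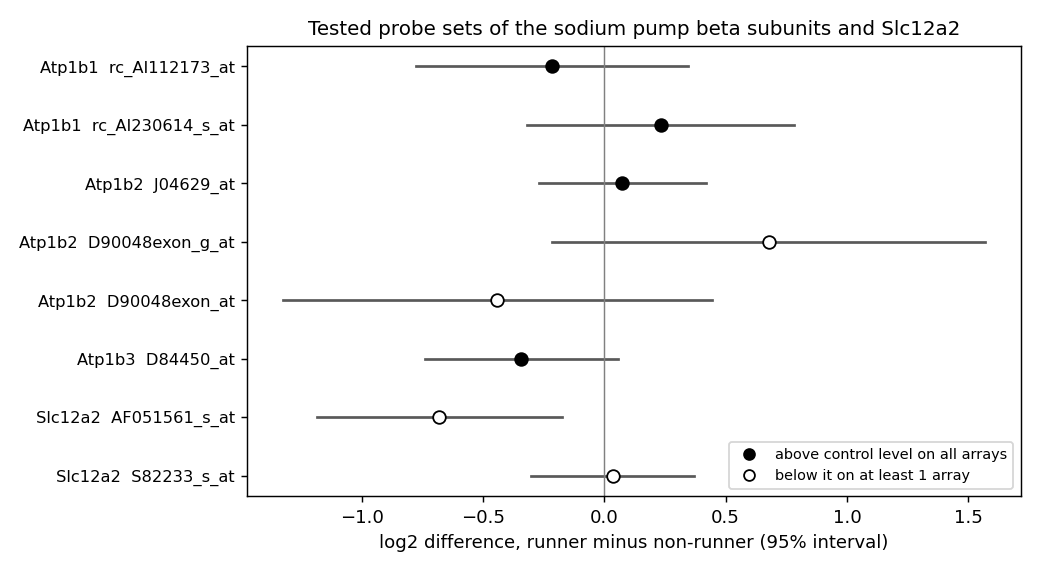
Log2 difference, runner minus non-runner (horizontal axis), of the 8 tested probe sets with 95% intervals from limma (lines), filled where all 6 arrays lay above the control level and open where at least 1 did not. Only the interval of AF051561_s_at of Slc12a2 (-1.18 to -0.17) leaves out 0, and that interval is not adjusted for the 5244 probe sets tested.

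Of the 8 tested probe sets of these genes, 4 had a positive and 4 a negative difference, and 50.8% of all 5244 tested probe sets had a negative one. Their median was -0.091, against -0.0052 over all tested probe sets. At an adjusted p under 0.05 by limma, 0 of the 8 were called, where 0% of all tested probe sets were called higher and 0% lower. At an unadjusted p under 0.05, 1 of the 8 was lower and 0 higher, against 4.23% lower and 3.83% higher of all tested probe sets. Groups did not overlap for 1 of the 8, lower in runners, against 7.49% lower and 7.36% higher of all. The 1 probe set in the unadjusted count and in the non-overlap count is AF051561_s_at of Slc12a2, so neither is a result about the 4 genes together.

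The brightest probe sets of 3 of the 4 genes, Atp1b1, Atp1b3 and Slc12a2, were highest on non-runner B and next highest on non-runner C, the arrays with the highest beta-actin ratios. In Atp1b2 the brightest probe set showed no such order. Atp1b1 rc_AI230614_s_at was lowest on non-runner B (42.1) and Slc12a2 S82233_s_at lowest on non-runner C (15.5). The share of all tested probe sets with that order was not counted, so it is not a result about these genes. With the ratio as a covariate, the log2 difference of Atp1b1 rc_AI112173_at changed sign to 0.20 ± 0.16. That of Slc12a2 AF051561_s_at was -0.41 ± 0.22 under the same covariate (SE, limma adjusted p = 0.852). The arrays with the highest ratios were both non-runners, so these fits cannot tell the ratio from the group.

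**Figure D3:**
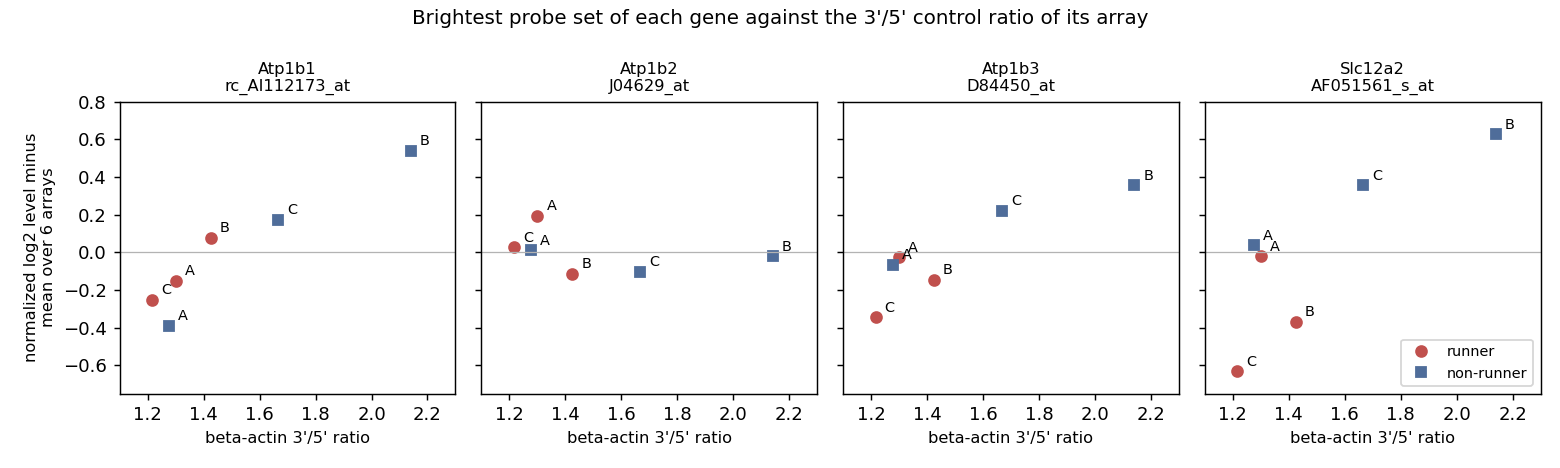
Normalized log2 level of the brightest probe set of each gene minus its mean over the 6 arrays (vertical axis) against the beta-actin 3'/5' ratio of the array (horizontal axis), with runners as circles and non-runners as squares. Atp1b1, Atp1b3 and Slc12a2 have their highest points on non-runner B (ratio 2.14) and C (1.67), while Atp1b2 stays between -0.11 and 0.20.

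The cells sampled were checked through their markers. Smooth muscle markers were bright in both groups, with Acta2 at 3896 to 4412 in runners and 2913 to 4648 in non-runners, and all 7 measured of the 8 listed lay above the control level. Ucp1, of brown fat, was also bright, at 881 to 1529 in runners and 764 to 1582 in non-runners. The summed intensity of 9 measured Schwann cell and nerve markers was 1415 to 1593 in runners and 1773 to 1976 in non-runners, and all 8 tested had a negative difference, of which S100b measured 121 to 199 in runners and 198 to 282 in non-runners. Without Pmp22, the brightest of them, the sums overlapped, at 601 to 822 in runners and 806 to 876 in non-runners. Of the 8 tested, 3 (S100b, Th and Snap25) had an unadjusted p under 0.05 by limma, and 0 passed after adjustment. Of all tested probe sets, 4.23% had such a p and were lower. For 7 endothelial markers the sums were 503 to 526 in runners and 546 to 670 in non-runners. That separation rested on Egfl7, at 14.6 to 37.2 in runners and 86.7 to 140 in non-runners, without which the sums were 488 to 492 in runners and 406 to 584 in non-runners. Pecam1 averaged 171 in runners and 134 in non-runners, with overlapping groups, the 1 positive difference among 6 tested endothelial markers. The other 5 were negative. Of these, 3 (Nos3, Flt1 and Egfl7) had an unadjusted p under 0.05 by limma, against 4.23% lower of all tested probe sets. After adjustment 0 passed. Skeletal and cardiac muscle markers summed to 388 to 545 in runners and 471 to 658 in non-runners over 14 genes, with Ckm at 13.1 to 57.9 in runners and 19.5 to 88 in non-runners. None of these nerve and endothelial markers was listed at 0. Adipocyte markers, 7 measured, summed to 3294 to 3635 in runners and 2790 to 3671 in non-runners, and 6 blood and macrophage markers, led by Hbb, to 2548 to 4231 in runners and 1964 to 2401 in non-runners. Without Hbb the blood sums overlapped, at 1075 to 1347 in runners and 1004 to 1199 in non-runners. Of 5 kidney and other epithelial markers, 0 averaged above the control level. The separation of the nerve, endothelial and blood sums thus rested on 1 gene each, but sums mostly follow bright genes. Groups were also separated for Th (29.8 to 68.8 in runners, 72 to 101.7 in non-runners), Snap25 and Pmp22 (770.8 to 814.2 against 897.2 to 1170), all lower in runners. Of the adipocyte markers, Fabp4 was separated higher (628.1 to 753.9 against 403.6 to 532.5) and Lpl lower (594.1 to 671.1 against 750.4 to 868). Flt1 was separated too, lower (41.5 to 57.9 against 59.6 to 65.7), and Pf4 higher (170 to 187 against 131 to 147). Mbp, dim and untested, was separated higher, against the other nerve markers. Of all tested probe sets, 7.49% were separated lower and 7.36% higher. The part of these cells in the values of Slc12a2 and Atp1b3 was not tested.

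Genes that work with the pump and the cotransporter were taken from lists of sodium and chloride transport genes, of which 69 of 108 had a probe set with a single symbol and 44 were tested. Of the 44, 19 had a positive and 25 a negative difference, with a median of -0.043. At an adjusted p under 0.05 by limma 0 were called, and 2 higher and 3 lower had an unadjusted p under 0.05, where 0% of all 5244 tested probe sets were called and 3.83% had such a p and were higher and 4.23% lower. These counts take the brightest tested probe set of each gene. Over all 62 tested probe sets of the same genes, 0 were called, and 2 higher and 4 lower had an unadjusted p under 0.05. Adjusted p from limma ranged from 0.585 to 0.99 over the 44, and the smallest over the 62 was 0.324.

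Among the partners of the pump, the alpha subunit measured here was Atp1a4, known from sperm, which lay between 1.5 and 3.6 on all 6 arrays and was not tested. Other alpha subunits were not analysed here. Fxyd1, or phospholemman, a regulator of the pump in heart and muscle, measured 979.6, 1097.2 and 1021.3 on runner A, B and C, against 1011.1, 698.5 and 917.2 on non-runner A, B and C. The groups overlapped and non-runner B was lowest, the reverse of Atp1b3. Its log2 difference was 0.26 ± 0.18 (SE, limma adjusted p = 0.748), and 0.097 without non-runner B, and its other probe set gave 0.28. Fxyd2, the pump's gamma subunit of kidney, measured 34.8 ± 4.77 in runners and 38.5 ± 3.50 in non-runners, both means below the control level. Fxyd4 averaged 71.6 ± 13.2 on runner arrays and 80 ± 9.90 on non-runner arrays. Atp4a, the alpha subunit of the gastric proton pump, averaged 60.2 ± 19.3 on runner arrays and 61.9 ± 4.42 on non-runner arrays. Its other probe sets, S74801_s_at and X61933mRNA_s_at, were at most 19 and 11.6 on any array, below the control level.

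Of the cation-chloride cotransporters related to Slc12a2, 5 of 8 were measured and 3 tested. Slc12a4 encodes KCC1, which carries potassium and chloride out of the cell, and measured 176 ± 9.58 in runners and 198 ± 25.2 in non-runners (log2 difference -0.16 ± 0.16 SE, limma adjusted p = 0.802). Slc12a7, another potassium-chloride cotransporter, measured 110 ± 10.7 in runners and 105 ± 22.8 in non-runners (limma adjusted p = 0.918). Slc12a3, the thiazide-sensitive cotransporter of kidney, measured 25.7 ± 5.87 in runners and 24.1 ± 3.42 in non-runners, below the control level on every array. Slc12a1, the kidney form of the sodium-potassium-chloride cotransporter, and Slc12a5, the neuronal potassium-chloride cotransporter, were at most 1.4 and 3.3 on any array.

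Kinases and other regulators had 10 tested genes, 5 with a positive and 5 with a negative difference. Oxsr1 encodes a kinase that phosphorylates and activates NKCC1, and it measured 41.2, 39.1 and 31.5 on runner A, B and C, against 34.6, 11.3 and 18.1 on non-runner A, B and C. The groups overlapped, and only runner A lay above the control level, so no fold is given (limma unadjusted p = 0.0354, adjusted p = 0.586). Stk39, which encodes the related kinase SPAK and is named outside the rule as the partner of Oxsr1, averaged 167 ± 24.8 on runner arrays and 173 ± 14.6 on non-runner arrays. Its log2 difference there was -0.053. Further tested probe sets of Stk39, rc_AI043684_at and AF068261_s_at, gave -0.21 and -0.75 with overlapping groups (limma adjusted p = 0.853 and 0.757). AF068261_s_at lay below the control level on every array. Nedd4, a ubiquitin ligase, measured 219 ± 20.0 in runners and 163 ± 58.5 in non-runners (limma adjusted p = 0.65).

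Carriers driven by the sodium gradient had 13 tested genes, 4 with a positive and 9 with a negative difference. Slc6a9, the glycine transporter GlyT1, measured 99.1, 96.6 and 81.2 on runner A, B and C, against 130.5, 114.5 and 185.9 on non-runner A, B and C. The groups did not overlap, and the log2 difference was -0.60 ± 0.21 (SE, limma unadjusted p = 0.0231, adjusted p = 0.585), which was -0.39 without non-runner C and -0.75 without non-runner B. Slc5a3, the sodium-coupled inositol transporter, measured 100.2, 94.4 and 91 on runner A, B and C, against 70.5, 38.2 and 80.1 on non-runner A, B and C. Every runner array lay above every non-runner array, and the log2 difference of 0.63 ± 0.26 (SE, limma adjusted p = 0.595) was 0.32 without non-runner B. Slc5a1, the glucose transporter SGLT1, measured 53.1 ± 19.8 in runners and 85.5 ± 20.0 in non-runners, with overlapping groups and an adjusted p = 0.585 by limma. Its other tested probe set, D16101_s_at, gave a log2 difference of -0.14 and lay below the control level on every array. Slc1a2, a glutamate transporter, lay below the control level in all runners and on all but 1 of the non-runner arrays.

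Sodium exchangers and bicarbonate transporters had 3 positive and 4 negative differences among 7 tested genes. Slc8a1, the sodium-calcium exchanger of heart and smooth muscle, measured 287 ± 72.7 in runners and 312 ± 28.9 in non-runners (log2 difference -0.14 ± 0.21 SE, limma adjusted p = 0.876). Further tested probe sets of Slc8a1, S67769_s_at and U04934_s_at, gave 0.23 and -0.024, so the sign is not settled. Slc4a7, a sodium bicarbonate cotransporter found in arteries, measured 162 ± 18.4 in runners and 193 ± 32.8 in non-runners (limma adjusted p = 0.754). Sodium channels had 4 positive and 3 negative differences among 7 tested genes, and 1 of the 16 measured, Scn7a, averaged above the control level. Scn7a, whose channel is known as Nax and from sodium sensing, is named after its values were seen, and its probe sets disagreed. S75991_at, the brighter, measured 80.6 ± 15.9 in runners and 83.3 ± 14.7 in non-runners, with overlapping groups (log2 difference -0.053 ± 0.20 SE, limma adjusted p = 0.955). The other, rc_AA925248_at, measured 25.7, 52.1 and 36.4 on runner A, B and C, against 65.8, 89.9 and 103.1 on non-runner A, B and C. Every runner array lay below every non-runner array there, and 1 of the 3 runner arrays and all 3 non-runner arrays lay above the control level. Its log2 difference was -1.17 ± 0.27 (SE, 95% interval -1.79 to -0.55), with an unadjusted p = 0.00241 and an adjusted p = 0.324 by limma, so it did not pass, and it was -1.13 without non-runner B.

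**Figure D4:**
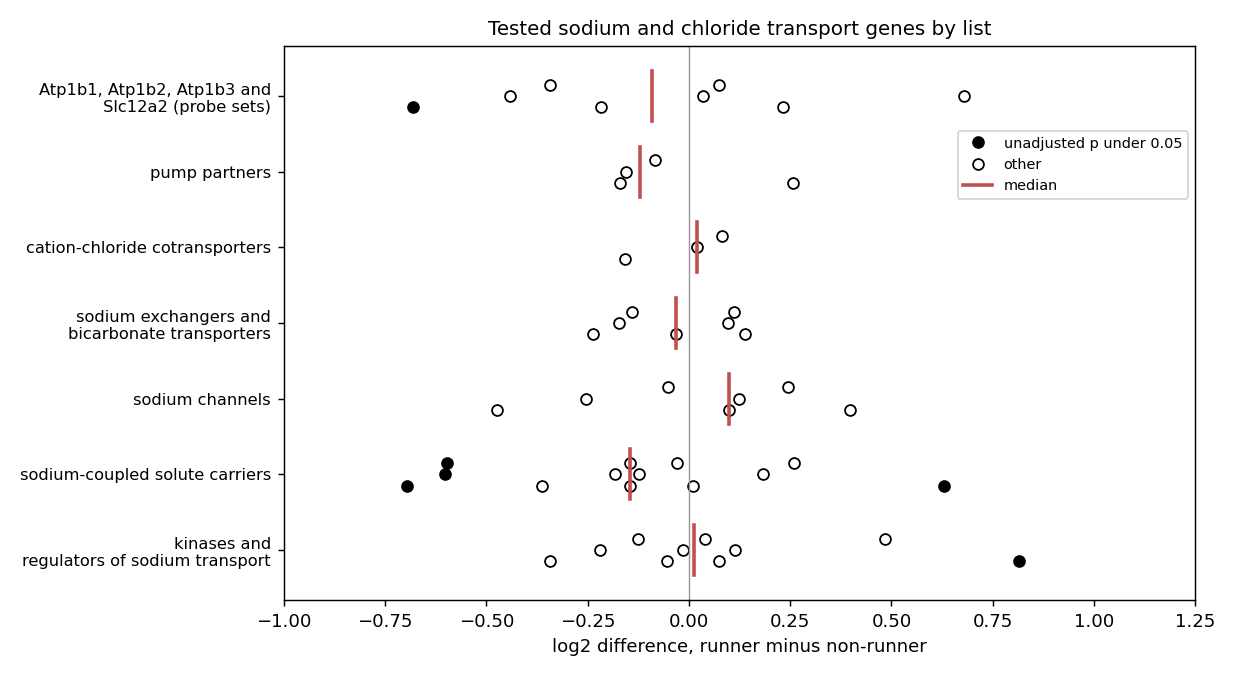
Log2 difference, runner minus non-runner (horizontal axis), of the tested probe sets of Atp1b1, Atp1b2, Atp1b3 and Slc12a2 in the top row and of 44 tested genes in 6 lists of sodium and chloride transport genes, with the median of each row as a red line. Each list gene is shown by its brightest tested probe set, so Scn7a rc_AA925248_at (-1.17) is not plotted. Points lie on both sides of 0 in every row, between -0.70 and 0.82, and filled points have an unadjusted p under 0.05.

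Genes with the pattern most like each of the 4 were found by the root mean square difference between log2 values over the 6 arrays, each centred on its own mean. Nearest to Atp1b1 rc_AI112173_at were Rpl3, Ube2g2 and Foxk2, at 0.055, 0.063 and 0.069 on the log2 scale. Rpl3 measured 1838.9, 1984.4 and 1636.4 on runner A, B and C, against 1600.9, 2963.1 and 2147.6 on non-runner A, B and C, with the same highest and lowest arrays as Atp1b1. Nearest to Atp1b2 J04629_at were Map6, Arl3 and Nup37, at 0.034, 0.048 and 0.048. Nearest to Atp1b3 were Ppid, Irgq and Plin2, at 0.029, 0.041 and 0.058, and Plin2 measured 182.9, 150.5 and 145.3 on runner A, B and C, against 171.3, 218.2 and 198.4 on non-runner A, B and C. Nearest to Slc12a2 AF051561_s_at were Eed, Aggf1 and Cited2, at 0.047, 0.089 and 0.099, and Eed measured 51.2, 44.8 and 37.5 on runner A, B and C, against 56.6, 89 and 74.4 on non-runner A, B and C. These are descriptions over 6 arrays that share the spread of non-runner B.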

How the data were processed

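The authors deposited linear intensities, with a single value for each of 8799 probe sets on each array. The software behind them is not stated in the sources used here. Each array held a pool of 3 aortae per the labels. Probe sets were named through the platform annotation, where 7006 had 1 symbol, and 6985 of these matched the GRCr8 gene table by identifier, which served for names only. Array medians differed by up to 1.13 times, and values were quantile normalized after log2(intensity + 2.4), with the 10th percentile of all values above 0 as pseudocount. The test left out 59 control probe sets and the 40% of the rest with the lowest mean, so that 5244 remained. The comparison used lmFit and eBayes of limma 3.58.1 under R 4.3.3, with two-sided p-values adjusted by Benjamini-Hochberg over the 5244, and was tested on simulated data. Plots were made in matplotlib 3.10.9. Intensities have no read depth, so the number of arrays limits the precision.

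The 4 genes, the gene lists and the tests were chosen with earlier results of these data known. Named were all probe sets of the 4 genes, tested list genes with the smallest p (up to 4 per list, some given only as counts), Fxyd1 and the alpha subunits, the 3 nearest genes in pattern, and the leading markers of the cell lists. The brightest probe set stood for genes outside the 4. Chip letters were not used as pairs, and the labels give runner chips a second letter, D, E and F. Deviations from group means of arrays with the same letter correlated at -0.085, -0.041 and -0.051. For arrays with different letters the correlations were -0.012 to 0.066. With 3 arrays per group such values cannot show whether arrays of a letter were handled together. The alternatives changed the pseudocount, normalization, filter or variance model, added the chip letter as a block, the beta-actin ratio or array weights, or left out each array in turn.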

Additional observations from a re-analysis of the deposited data

How the results depend on the processing

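All alternatives were planned. Of 130 refits of the 8 tested probe sets of Atp1b1, Atp1b2, Atp1b3 and Slc12a2, 127 kept their sign and 0 passed the threshold. Refits that changed only the filter or the variance model, or added the chip-letter block, could not turn a sign. The count of 127 includes them. The sign of Atp1b1 rc_AI112173_at turned with the beta-actin ratio as a covariate (0.20). Leaving out each array gave -0.0061 to 0.15 for Atp1b2 J04629_at and -0.047 to 0.091 for Slc12a2 S82233_s_at. It gave -0.46 to -0.0033 for Atp1b1 rc_AI112173_at, 0.026 to 0.42 for rc_AI230614_s_at, -0.46 to -0.25 for Atp1b3 and -0.84 to -0.53 for Slc12a2 AF051561_s_at. With chip letter as a replicate block, which shares only a letter between arrays, differences were unchanged by construction and AF051561_s_at had an adjusted p = 0.703 and D84450_at 0.768 by limma. Over all probe sets, the call counts of 0 higher and 0 lower were 0 and 1 with array quality weights, and 0 to 4 higher and 0 to 1 lower as arrays were left out. Between 310 and 617 probe sets had an unadjusted p under 0.05 with 6 arrays, against 423 as reported. Among list genes, signs turned for Asic2 with the covariate (-0.49) and array quality weights (-0.058) and for Hsd11b1 with the covariate (0.061). Leaving out each array gave -0.23 to 0.76 for Asic2, -0.31 to 0.029 for Atp4a, -0.29 to 0.076 for Slc8a1, -0.14 to 0.20 for Slc12a3, -0.076 to 0.20 for Slc12a7, -0.16 to 0.095 for Scn7a S75991_at, -1.42 to -0.96 for Scn7a rc_AA925248_at and -0.75 to -0.39 for Slc6a9.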
